A study of Homo sapiens with 32 samples.

Results

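The m6A peaks on chromosome 9 numbered 23811 of 474004 (5.02%) over 16 peak lists, 14364 of 262541 in the 8 lists of 786-O and 9447 of 211463 in the 8 lists of RPTEC. A peak was taken as a member when its list placed it on chromosome 9, whatever its score. The chromosome itself was chosen by its share of peaks in the 786-O lists, which was higher in SETD2KO than in SETD2-expressing lines, so every 786-O value of that contrast is given as a description and carries no test. m6A was mapped by MeRIP-seq, in which RNA fragments are immunoprecipitated (IP) with an anti-m6A antibody and compared with Input RNA, in 786-O, a clear cell renal cell carcinoma (ccRCC) line, and RPTEC, hTERT-immortalized renal proximal tubule epithelial cells that serve as a surrogate of normal tubule. Each was studied as the WT parent, as the CRISPR/Cas9 knockout clones SETD2KO-1 and SETD2KO-2, and as SETD2KO-1R, the clone SETD2KO-1 re-expressing full-length FLAG-tagged SETD2 from a transgene. Cells were untreated, and 786-O and RPTEC were grown in different media. WT and SETD2KO-1R, the lines that carry SETD2, form the SETD2-expressing group, which gives 4 SETD2KO and 4 SETD2-expressing lists per cell line. Each knockout or rescue line is 1 clone with 2 IP lists. The sources do not say whether the 2 lists of a line came from separate cultures, so p-values measure only the spread between these lists, which may be technical.

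SETD2 trimethylates lysine 36 of histone H3 over transcribed gene bodies, and SETD2 is a recurrently mutated tumor suppressor of ccRCC. m6A is written on nascent RNA by the METTL3-METTL14 complex, mostly within a short purine-rich consensus with a central AC, of which GGAC is the most frequent core, and is enriched in long internal exons and near stop codons. H3K36me3 has been linked to the recruitment of this complex. The study asked whether loss of SETD2 moves m6A in the transcriptome. Chromosome 9 carries, on its short arm, the tumor suppressor genes CDKN2A and CDKN2B and their neighbor MTAP, and on its long arm NOTCH1, ABL1, RXRA and CTSL.

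Of 1584 start windows of chromosome 9 genes, each 300 bases from 250 before to 50 after an annotated start, 427 held a peak in at least 1 list and 14 did so in all 16. The sequences below are those of the 3 windows in which the call followed SETD2 status without exception in a cell line, chosen after their values were seen. Of the windows with a peak in a 786-O list, 2 of 384 on chromosome 9 (0.521%) were called in all SETD2KO lists alone and 0 in all SETD2-expressing lists alone, where 0.305% and 0.106% of such windows in the genome were. In RPTEC 0 of 257 were called in SETD2KO alone and 1 (0.389%) in SETD2-expressing alone, where 0.209% and 0.174% were in the genome. Nothing is read from counts this small about chromosome 9 as a whole. The sequences are from RefSeq (GRCh38.p14), 5′ to 3′ on the strand of the gene, with GGAC on that strand in capitals. CTSL encodes the lysosomal protease cathepsin L, and its window is chr9:87725869-87726168 on the plus strand. NOTCH1 encodes a transmembrane receptor of cell fate signaling, and its window is chr9:136545999-136546298 on the minus strand. PCSK5 encodes a proprotein convertase of the secretory pathway, and its window is chr9:75890423-75890722 on the plus strand.
CTSL: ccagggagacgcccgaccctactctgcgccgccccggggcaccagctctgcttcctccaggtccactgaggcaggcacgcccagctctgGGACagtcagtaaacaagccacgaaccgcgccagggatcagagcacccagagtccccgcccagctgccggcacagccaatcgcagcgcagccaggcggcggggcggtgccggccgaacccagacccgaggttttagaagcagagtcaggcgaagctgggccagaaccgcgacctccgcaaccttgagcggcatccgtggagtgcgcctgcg
NOTCH1: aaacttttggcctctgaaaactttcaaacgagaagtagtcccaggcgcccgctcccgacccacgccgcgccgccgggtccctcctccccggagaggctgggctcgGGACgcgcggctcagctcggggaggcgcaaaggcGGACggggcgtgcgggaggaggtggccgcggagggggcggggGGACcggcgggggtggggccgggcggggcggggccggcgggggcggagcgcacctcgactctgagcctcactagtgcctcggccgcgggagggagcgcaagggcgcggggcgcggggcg
PCSK5: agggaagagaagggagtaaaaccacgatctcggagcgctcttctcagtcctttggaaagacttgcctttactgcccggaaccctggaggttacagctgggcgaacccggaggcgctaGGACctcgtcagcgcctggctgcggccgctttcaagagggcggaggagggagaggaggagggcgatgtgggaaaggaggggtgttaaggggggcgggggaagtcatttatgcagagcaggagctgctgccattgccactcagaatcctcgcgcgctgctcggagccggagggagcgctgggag

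GGAC was searched on both strands. Of all 35116 start windows of the genome, 87.4% held it on either strand and 66.3% on the strand of the gene. Its presence therefore does not set these windows apart. CTSL held 1 copy on its own strand, NOTCH1 3 and PCSK5 1, none of them in the 50 bases after the start. The CTSL window was overlapped by a peak in all 4 SETD2KO lists of 786-O, in none of the 4 SETD2-expressing lists and in none of the 8 RPTEC lists. Those 4 peaks were 262 to 303 bp long and ranked at the 95.2 to 97.1 percentile of score within their lists. Their summits lay inside the window, at 87726061 to 87726088, all before the annotated start of CTSL at 87726119. Only their ends, at 87726219 to 87726257, reached into the gene, and without strand they cannot be assigned to its transcript. The NOTCH1 window was likewise overlapped in all 4 SETD2KO lists of 786-O and in none of the other 12. There the peaks ranked at the 31.8 to 86.2 percentile, and only 2 of the 4 summits lay inside the window. The 2 outside it, at 136546349 and 136546568, and 1 of those inside, at 136546151, lay before the start of the gene. The PCSK5 window was overlapped in all 8 lists of 786-O and, in RPTEC, in the 4 SETD2-expressing lists and in none of the 4 SETD2KO lists.

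The NOTCH1 window also holds the whole hairpin of MIR4674, on the same strand, from base 40 to base 126 of the sequence above. Of 76 miRNA hairpins on chromosome 9, 9 were overlapped by a peak in any list, and MIR4674 was overlapped in the 4 SETD2KO lists of 786-O and in no other list. Its mature sequence is shown because it lies in the same window, with the seed, bases 2 to 8, in capitals, at chr9:136546182-136546202 on the minus strand.
hsa-miR-4674: cUGGGCUCgggacgcgcggcu

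MeRIP-seq of fragmented RNA does not tell a mature miRNA from the transcript around it, and the lists carry no strand. Of the other hairpins, MIR3960 was overlapped in 14 of 16 lists and MIR4665 in 12, both named after their values were seen.

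Chromosome 9 held a larger share of the peaks of 786-O when SETD2 was absent, and no such rise was seen in RPTEC. In 786-O WT the share was 5.04% and 5.01%. In SETD2KO-1 it was 6.21% and 5.99%, and in SETD2KO-2 it was 6.15% and 5.92%. In SETD2KO-1R it was 4.66% and 4.48%, so that both lists of the rescued clone lay below both of WT and all SETD2KO lists lay above all others. Of the 23 chromosomes compared, 4 had all SETD2KO lists of 786-O above and 4 had all below, and in RPTEC 3 and 3 did, so such a separation was not particular to chromosome 9. The mean was 6.06% ± 0.135 in SETD2KO and 4.80% ± 0.272 in SETD2-expressing lists (SD, n = 4 lists each), 1.26 times as high. This ratio, 0.34 on the log2 scale, was the highest of the 23 chromosomes compared, followed by chromosome 8 with 0.28, which is the property that chose chromosome 9.

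**Figure D1:**
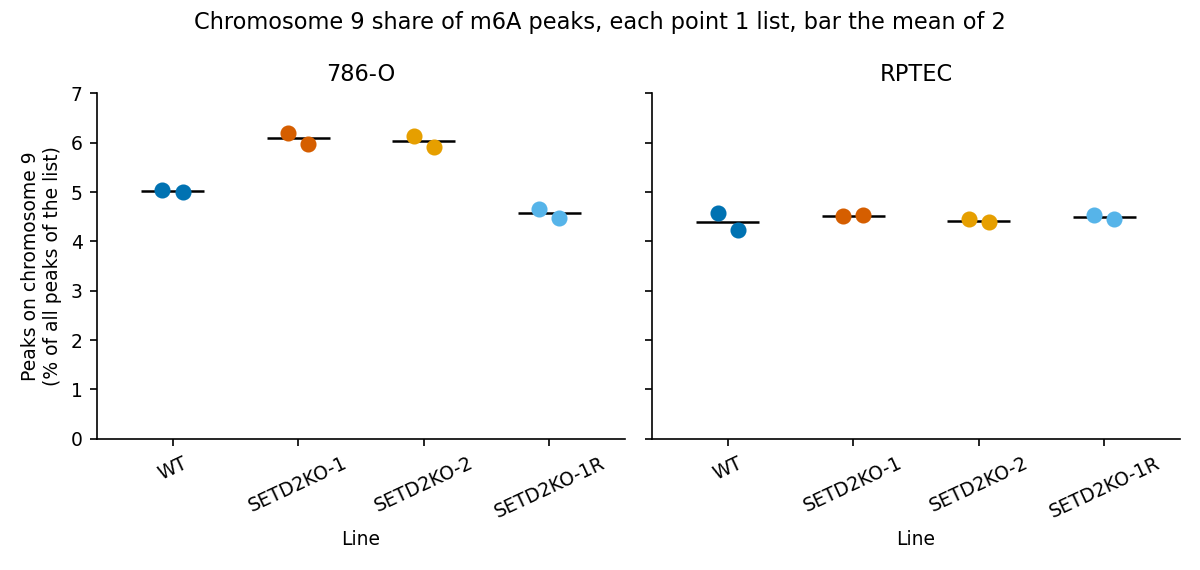
Share of each list's peaks that lie on chromosome 9 (y axis, percent of all peaks) by line (x axis), 786-O on the left and RPTEC on the right; points are lists and bars the mean of the 2 lists of a line. In 786-O the 4 SETD2KO lists sit between 5.92 and 6.21, above all SETD2-expressing lists, and in RPTEC all 8 lists sit between 4.23 and 4.57.

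In RPTEC the share was 4.57% and 4.23% in WT, 4.51% and 4.53% in SETD2KO-1, 4.45% and 4.40% in SETD2KO-2, and 4.53% and 4.46% in SETD2KO-1R. The 2 WT lists were the highest and the lowest of the 8, and the groups overlapped. The mean was 4.47% ± 0.0576 in SETD2KO and 4.45% ± 0.152 in SETD2-expressing lists (SD, n = 4 each), a difference of 0.0234 percentage points (two-sided exact permutation test, p = 0.914; smallest p of the design 0.029). Its ratio of 0.01 on the log2 scale ranked 10 of 23 chromosomes in RPTEC. The RPTEC lists did not enter the choice of the chromosome. The difference between the cell lines was not tested, because the 786-O side was selected on its size. The lists of the cell lines carry different MeRIP run names, and the sources do not say whether these were separate experiments; if they were, cell line and experiment cannot be told apart.

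**Figure D2:**
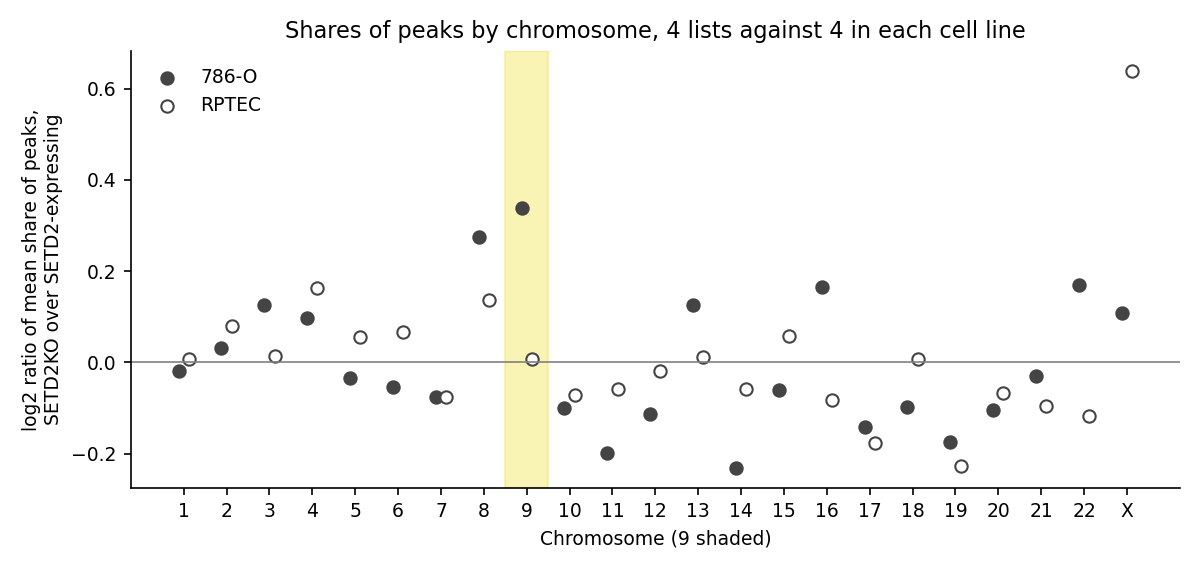
Log2 ratio of the mean share of peaks, SETD2KO over SETD2-expressing lists (y axis), for each chromosome (x axis), with 786-O as filled and RPTEC as open points and chromosome 9 shaded. Chromosome 9 is the highest point of 786-O at 0.34 and lies at 0.01 in RPTEC.

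The lists differ in length, from 25710 to 39670 peaks in 786-O and from 19249 to 31207 in RPTEC, and in number the chromosome 9 peaks of 786-O overlapped between the groups, at 1712 to 2438 in SETD2KO and 1151 to 1822 in SETD2-expressing lists. Read counts are not part of the lists, so their depth is unknown and single peaks carry no counting error here. In bulk RNA, fewer cells with a transcript and less RNA per cell cannot be told apart, and a peak needs both the transcript and its enrichment. SETD2 itself held 5 and 10 peaks in 786-O SETD2KO-1, 5 and 4 in SETD2KO-2 and 7 to 10 in the SETD2-expressing lists. In RPTEC it held 6 and 4, 4 and 5, and 7 to 11, with every SETD2KO list below every other, as 1.41% of genes with a peak were there. Each knockout list still had SETD2 peaks, so the peak lists alone do not check the knockout. Of 18 marker genes looked up, PAX8, PAX2, CDH6, KRT8 and KRT18 of renal epithelium and VEGFA and EPAS1 of the hypoxia program had peaks in all 16 lists, and CDH16 in 2 lists of 786-O and 1 of RPTEC. The proximal tubule genes LRP2, AQP1 and SLC34A1 had none in any list and CUBN had 1 in a single 786-O list, while GGT1 had peaks in all 16 lists and ANPEP in 8 of 8 RPTEC and 2 of 8 786-O lists. PTPRC of leukocytes and PECAM1 of endothelium had none, and COL1A1 of fibroblasts had peaks in 1 list of 786-O and 6 of RPTEC. CA9, the carbonic anhydrase of chromosome 9 that marks ccRCC, had none in any list; an absent peak does not show absent RNA.

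In 786-O chromosome 9 had more genes with a peak, as a share of all such genes, when SETD2 was absent. The mean number of peaks per such gene was also higher, though not for every gene. Chromosome 9 genes with a peak made up 4.59% of all protein-coding genes with a peak in SETD2KO lists and 4.33% in SETD2-expressing lists, a difference of 0.261 percentage points without overlap, against 4.17% and 4.27% in RPTEC. Chromosome 9 genes with a peak held on average 3.90 ± 0.554 peaks in SETD2KO and 3.15 ± 0.457 in SETD2-expressing lists of 786-O (SD, n = 4 each), and 2.60 ± 0.388 and 2.83 ± 0.258 in RPTEC. The 786-O groups overlapped in this measure, since SETD2KO-2 replicate 2 was at 3.26 and WT replicate 2 at 3.61. Peaks per gene rise with the length of a list, and over all chromosomes they were 3.12 ± 0.310 and 2.98 ± 0.305 in 786-O. Divided by the value over all chromosomes of the same list, chromosome 9 was at 1.18 to 1.31 in SETD2KO and 0.996 to 1.12 in SETD2-expressing lists of 786-O, without overlap, and the means were 0.992 and 0.992 in RPTEC. With 19249 peaks per list this quotient was 1.11 to 1.26 and 0.983 to 1.05 in 786-O. Peaks of chromosome 9 ranked higher by score in the SETD2KO lists of 786-O, with a median percentile of 51.5 to 53.5 against 47.0 to 49.4, and without overlap. The rank was not computed for other chromosomes, so it is given as a description. In RPTEC these medians were 48.3 to 51.1 and 48.7 to 51.2.

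Chromosome 9 peaks outside genes differed more between the groups than those inside them. Scaled to 10000 peaks of a 786-O list, chromosome 9 peaks with the midpoint in no annotated gene numbered 71.7 ± 11.5 in SETD2KO and 45.2 ± 4.92 in SETD2-expressing lists, 1.59 times as many, and those in a protein-coding gene 1.22 times as many. In RPTEC those in no gene numbered 50 ± 9.35 in SETD2KO and 33.1 ± 2.76 in SETD2-expressing lists, also without overlap, and this count was not tested. Neither these counts nor the shares below were computed for other chromosomes. Whether the differences are particular to chromosome 9 is therefore not known. In RPTEC the share of chromosome 9 peaks in a protein-coding gene was 85.1% and 84.0% in WT, 77.5% and 84.3% in SETD2KO-1, 81.3% and 77.8% in SETD2KO-2, and 86.4% and 86.0% in SETD2KO-1R. The mean was 80.2% ± 3.24 in SETD2KO and 85.4% ± 1.03 in SETD2-expressing lists (SD, n = 4 each), a difference of -5.17 percentage points (two-sided exact permutation test, p = 0.0571). The groups overlapped in 1 list, SETD2KO-1 replicate 2. Leaving that list out separates them by construction, at -6.55 percentage points, so its p is not read as support. With any other list left out the exact permutation p was 0.0571 to 0.0857, and with a replicate block it was 0.111. In 786-O the same shares were 79.1% ± 2.84 and 82.3% ± 2.83 (SD, n = 4 each).

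The chromosome was divided into 14 windows of 10 Mb, of which the window from 50 to 60 Mb held no peak. In 786-O the SETD2KO mean was higher in 12 of the other 13 windows and all SETD2KO lists lay above all others in 8. These windows make up the share that chose the chromosome, and windows of other chromosomes were not counted. Nothing is therefore read from the 8 about chromosome 9 in particular. The window from 90 to 100 Mb held 0.597% and 0.621% of all peaks in WT, 0.785% and 0.776% in SETD2KO-1, 0.776% and 0.805% in SETD2KO-2, and 0.531% and 0.455% in SETD2KO-1R. The window from 110 to 120 Mb, which holds ASTN2 and PAPPA, went from 0.400% ± 0.0636 in SETD2-expressing to 0.592% ± 0.0428 in SETD2KO lists (SD, n = 4 each), again without overlap. The largest ratio was in the window from 60 to 70 Mb, 1.61, with 0.293% to 0.494% in SETD2KO and 0.184% to 0.268% in SETD2-expressing lists. The largest difference, 0.286 percentage points, was in the gene-dense window from 130 Mb to the end of the long arm, and there the lists overlapped, with SETD2KO-2 replicate 2 at 1.14% and WT replicate 1 at 1.2%. One window ran the other way. From 30 to 40 Mb all SETD2KO lists, at 0.404% to 0.423%, lay below all SETD2-expressing lists, at 0.434% to 0.533%.

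**Figure D3:**
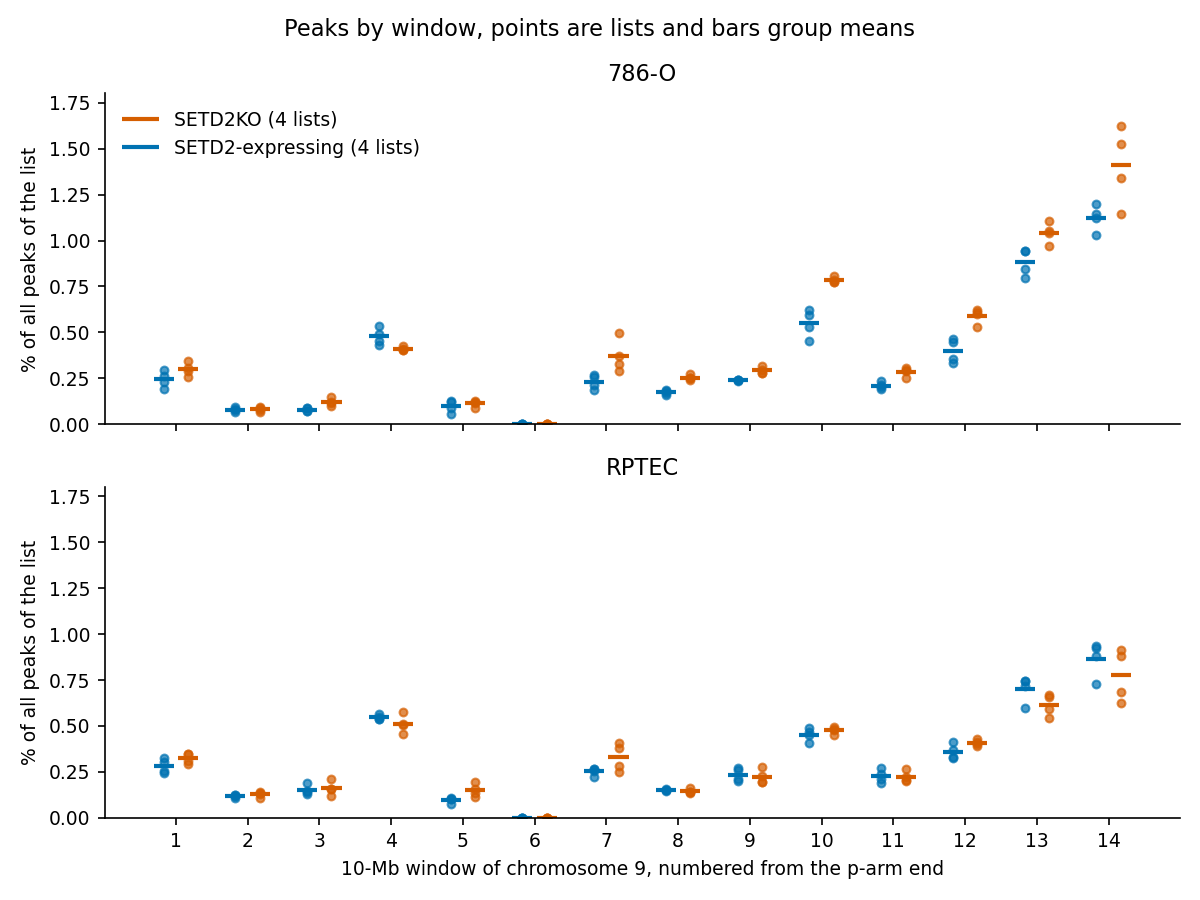
Percent of all peaks of a list (y axis) in each 10-Mb window of chromosome 9 (x axis, numbered from the end of the short arm), 786-O above and RPTEC below; points are lists and bars group means of 4. In 786-O the SETD2KO mean is higher in 12 of 13 windows with a peak, and lower in window 4; in RPTEC it is higher in 7.

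In RPTEC the SETD2KO mean was higher in 7 of 13 windows, and 0 windows passed an adjusted p of 0.05 (exact permutation tests, Benjamini-Hochberg over 13 windows), with 1 at an unadjusted p under 0.05. At the smallest p of the design 8 of the 13 windows would have to reach it together to pass the adjustment, so the count of 0 says little about single windows. The window with the low unadjusted p, from 40 to 50 Mb next to the centromere, held 0.111% to 0.195% of peaks in SETD2KO and 0.0778% to 0.106% in SETD2-expressing lists (exact permutation p = 0.029, adjusted p = 0.371). The window from 60 to 70 Mb, with the largest ratio in 786-O, had the same direction in RPTEC, with a ratio of 1.29, 0.248% to 0.405% in SETD2KO and 0.224% to 0.268% in SETD2-expressing lists, and the groups overlapped (exact permutation p = 0.143, adjusted p = 0.371). Ratios in RPTEC were 1.05 from 90 to 100 Mb, 1.14 from 110 to 120 Mb and 0.894 from 130 Mb on. Of the 8 windows above without overlap in 786-O, the RPTEC mean was higher in SETD2KO in 4 and lower in 4. A p that misses the threshold does not show that the windows were equal.

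The cell lines spread their chromosome 9 peaks differently along the chromosome. Of 13 windows, 8 differed in their share of the list's chromosome 9 peaks between 786-O and RPTEC at an adjusted p under 0.05 (two-sided exact permutation tests of 8 lists against 8, Benjamini-Hochberg adjusted). RPTEC had more in 4 short-arm windows. From 20 to 30 Mb, which holds CDKN2A, the share was 3.51% ± 0.725 in RPTEC and 1.85% ± 0.313 in 786-O (SD, n = 8 lists each; exact permutation test, adjusted p = 0.00101). 786-O had more in 4 long-arm windows, and from 130 Mb on the share was 23.3% ± 2.08 against 18.4% ± 2.55 (SD, n = 8 each; exact permutation test, adjusted p = 0.00144). With the means of the 4 lines as units, 7 windows had an unadjusted exact permutation p under 0.05 and 0 passed after adjustment. The lists of both SETD2 states enter this comparison, and a difference between MeRIP runs, if there was one, was not tested.

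Peaks were counted per gene body, and a gene was called when all 4 SETD2KO lists lay above, or all below, the 4 SETD2-expressing lists. Chromosome 9 has 778 protein-coding genes in the annotation, and 527 held a peak in any 786-O list. Of these 527, 19 (3.61%) were called above and 1 (0.190%) below, where over the whole genome 1.52% and 0.901% of genes with a peak were. In RPTEC 5 of 500 genes (1.00%) were above and 2 (0.400%) below, where 1.01% and 1.41% of all genes with a peak were. No chromosome 9 gene was called in the same direction in both cell lines, where over the genome 15 of 156 genes called above in 786-O with a peak in both were also above in RPTEC and 6 of 100 called below were also below. With 17 and 1 such genes on chromosome 9, nothing is read from the count of 0. With each list reduced to its 19249 peaks of highest score, the length of the shortest list, 12 genes were above in 786-O, 4 of them among the 19, and 0 below. The 786-O percentages follow from the contrast that chose the chromosome, and those of RPTEC did not exceed the genome's. The mean difference was above 0 for 345 and below 0 for 114 of the 527 genes in 786-O, with a median of 0.5 peaks per list over chromosome 9 and 0 over all genes. In RPTEC, where the SETD2KO lists were shorter on average, it was above 0 for 147 and below 0 for 285 of 500, with a median of -0.25 on chromosome 9 and over all genes. Of 308 genes with peaks in both cell lines and a higher SETD2KO mean in 786-O, 89 were also higher in RPTEC, 180 lower and 39 equal.

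Of the 10 genes with the largest rise in 786-O, 9 lay on the long arm and 1, PTPRD, on the short arm. ASTN2, which encodes a neuronal membrane protein of migration and trafficking, lies at chr9:116423112-117415057. It held 10 and 12 peaks in WT, 30 and 31 in SETD2KO-1, 41 and 22 in SETD2KO-2, and 8 and 4 in SETD2KO-1R. The mean went from 8.50 ± 3.42 to 31.0 ± 7.79 peaks per list (SD, n = 4 each), or 0.857 to 3.13 per 100 kb, with no overlap. The mean difference of 22.5 peaks was 12 with 19249 peaks per list, still with no overlap. In RPTEC it held 11 and 8, 5 and 7, 5 and 5, and 3 and 2 peaks in the same order of lines, so the SETD2KO lists fell within the SETD2-expressing range. TRIM32 lies inside ASTN2, and without strand the peaks of the overlap cannot be assigned.

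PAPPA, the neighbor of ASTN2 at chr9:116153791-116402321, encodes a secreted protease that cleaves insulin-like growth factor binding proteins. It held 3 and 3 peaks in WT, 12 and 11 in SETD2KO-1, 12 and 6 in SETD2KO-2, and 3 and 0 in SETD2KO-1R. The mean difference was 8 peaks per list, and 4.75 with 19249 peaks per list, without overlap in both. In RPTEC it had 0 to 3 peaks in every list. From PAPPA to the end of ASTN2 the SETD2KO lists of 786-O held 43, 43, 54 and 29 peaks, 1.69% to 2.21% of their chromosome 9 peaks, and the SETD2-expressing lists 14, 16, 12 and 4, 0.348% to 0.882%. RPTEC lists held 7 to 10 there in SETD2KO and 5 to 15 in SETD2-expressing lists.

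PCSK5 moved in opposite directions in the cell lines. At chr9:75889809-76362975 it held 12 and 9 peaks in 786-O WT, 17 and 17 in SETD2KO-1, 19 and 17 in SETD2KO-2, and 4 and 3 in SETD2KO-1R. In RPTEC it held 4 and 2 peaks in WT, none in any of the 4 SETD2KO lists, and 1 and 7 in SETD2KO-1R. Thus every SETD2KO list was above in 786-O, by 10.5 peaks on average, and below in RPTEC, by a mean of -3.50, which includes the start window whose sequence is shown above. With 19249 peaks per list the mean differences were 3.75 in 786-O, where the groups then overlapped, and -2.75 in RPTEC, where they did not. The opposite direction was thus kept, and the separation in 786-O was not.

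**Figure D4:**
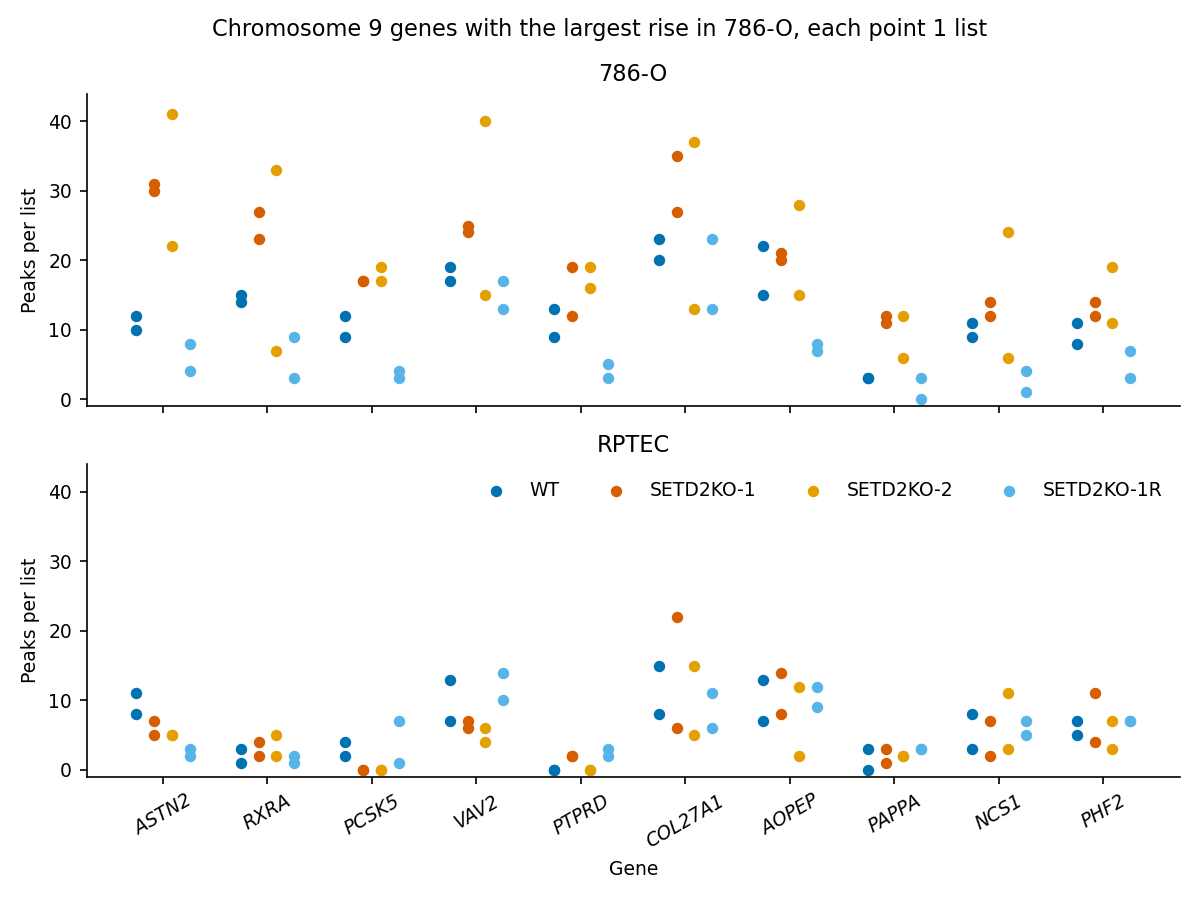
Peaks per list (y axis) for the 10 chromosome 9 genes with the largest rise in 786-O (x axis), 786-O above and RPTEC below, points coloured by line. ASTN2, PCSK5 and PAPPA separate all SETD2KO from all SETD2-expressing lists in 786-O; in RPTEC PCSK5 is at 0 in the 4 SETD2KO lists.

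The other 7 genes with the largest rise did not separate the groups, and for most of them SETD2KO-2 replicate 2, the shortest SETD2KO list of 786-O, was the lowest SETD2KO list. RXRA encodes a nuclear receptor that pairs with retinoid, vitamin D and lipid-sensing receptors. It held 14 and 15 peaks in WT, 23 and 27 in SETD2KO-1, 33 and 7 in SETD2KO-2, and 9 and 3 in SETD2KO-1R. VAV2, a signaling protein of the VAV family, held 17 and 19, 25 and 24, 40 and 15, and 17 and 13 in the same order. Its RPTEC lists ran the other way, from 11 ± 3.16 peaks in SETD2-expressing to 5.75 ± 1.26 in SETD2KO lists (SD, n = 4 each), and overlapped. With 19249 peaks per list the mean difference in 786-O was 6.25 in place of 12.25 for RXRA and 4.75 in place of 9.50 for VAV2, and that of VAV2 in RPTEC was -2.25 in place of -5.25.

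PTPRD, a receptor tyrosine phosphatase, rose by a mean of 9 peaks per list in 786-O, COL27A1, a fibrillar collagen, by 8.25, AOPEP, an aminopeptidase, by 8, NCS1, a neuronal calcium sensor, by 7.75, and PHF2, a histone demethylase of the PHD finger family, by 6.75. In RPTEC their mean differences were -0.25, 2.00, -1.25, 0 and -0.25 peaks per list, none without overlap. With 19249 peaks per list the 786-O differences were 5 for PTPRD, 6.50 for COL27A1, 8.25 for AOPEP, which then separated the groups, 5 for NCS1 and 3.75 for PHF2. AOPEP overlaps FANCC, so part of its peaks could belong to that gene. Together the 10 genes added 102.5 peaks per list, 18.2% of the mean excess of 564 chromosome 9 peaks in the SETD2KO lists of 786-O. Per length, the SETD2KO lists had 21.6 peaks per 100 kb in NCS1, 19.7 in RXRA and 17.7 in COL27A1, against 0.718 in PTPRD.

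Falls in 786-O were small. SLC1A1, which encodes a glutamate transporter of kidney and brain, was the only gene called below, with 3 and 3 peaks in WT, 0 and 0 in SETD2KO-1, 0 and 1 in SETD2KO-2, and 2 and 3 in SETD2KO-1R. In RPTEC it held 1 peak in both WT, both SETD2KO-1 and both SETD2KO-1R lists and 0 in both SETD2KO-2 lists. ROR2, a receptor of Wnt5a, held 7 and 5, 2 and 3, 4 and 4, and 6 and 4 peaks in 786-O and none in any RPTEC list. The difference of SLC1A1 was -2.50, and with 19249 peaks per list it was -1.25 and the groups overlapped, while that of ROR2 went from -2.25 to -0.25. The remaining 8 of the 10 largest falls, STRBP, PSIP1, GARNL3, MELK, ZCCHC7, CNTRL, PBX3 and LPAR1, had mean differences of -1.75 to -1.25 peaks per list with overlap, and with 19249 peaks per list CNTRL was at 0.25 and ZCCHC7 at 0.

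Among the called genes outside the ranking, named here after their values were seen, APBA1, which encodes an adaptor of synaptic vesicle release, held 1 and 0 peaks in 786-O WT, 5 and 6 in SETD2KO-1, 4 and 5 in SETD2KO-2, and 0 and 0 in SETD2KO-1R. In RPTEC its mean difference ran the other way, -1.75 peaks per list, with 0 and 0 peaks in WT, 0 and 0 in SETD2KO-1, 1 and 1 in SETD2KO-2, and 5 and 4 in SETD2KO-1R, and the groups overlapped. MAMDC2, which encodes a secreted matrix protein, held 2 and 4, 11 and 11, 11 and 11, and 6 and 8. In RPTEC it held 6 and 2, 9 and 6, 6 and 4, and 7 and 8, with overlap. CARD9, an adaptor of innate immune signaling, held 0 in the 4 SETD2-expressing lists and 2, 4, 3 and 1 in the SETD2KO lists, and none in any RPTEC list. STKLD1, a kinase-like gene, held 2 in each SETD2KO list of 786-O and 0 in the other 12 lists. Of these 4, APBA1 alone was still called with 19249 peaks per list.

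In RPTEC the largest rise was in ADAMTSL1, which encodes a secreted matrix glycoprotein related to ADAMTS proteases and lies at chr9:17906633-18910950. It held 2 and 1 peaks in WT, 4 and 6 in SETD2KO-1, 8 and 6 in SETD2KO-2, and 0 and 1 in SETD2KO-1R. Its mean difference was 5 peaks per list, and 3 with 19249 peaks per list, without overlap in both. In 786-O it held 1 peak in 1 SETD2KO-1R list and 0 in the other 7. SNX30, a sorting nexin, held 2 and 1, 4 and 3, 4 and 4, and 0 and 1 in RPTEC, and 4 and 2, 3 and 4, 3 and 2, and 0 and 1 in 786-O, where the groups overlapped. SPTLC1, a subunit of the enzyme that starts sphingolipid synthesis, INSL6 and PTBP3 had mean rises of 2.25 to 2.50 peaks per list with overlap, and INSL6 overlaps JAK2, so that peaks of the overlap cannot be assigned. The other 3 genes called above in RPTEC were ATOSB, SYK and SLC34A3. The falls were in MTAP, described below, VAV2, ABL1, EHMT1 and NEK6, with means of -6.25 to -3.75 and overlap in each, and of -3 to -1.50 with 19249 peaks per list. The genes called below were PCSK5 and GCNT1, and GCNT1, a glycosyltransferase of O-glycans, was called above in 786-O, with 3, 6, 4 and 4 peaks in SETD2-expressing and 8 in each SETD2KO list, against 4, 3, 4 and 3 and 2 in each SETD2KO list of RPTEC. GCNT1 was called in neither cell line with 19249 peaks per list.

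Of 7 lists of chromosome 9 genes, the one of tumor suppressors, oncogenes and growth signaling had the largest median difference in 786-O, 1.5 peaks per list over its 23 of 27 members with a peak, beside 0.5 over the chromosome. Its mean was higher in SETD2KO for 20 members and lower for 3, and 1, KLF4, a zinc finger transcription factor of epithelial differentiation, was called above, with 0 peaks in the SETD2-expressing lists and 2, 1, 2 and 3 in the SETD2KO lists. Over chromosome 9 3.61% of genes with a peak were called above in 786-O and over the genome 1.52%, and in RPTEC 1.00% and 1.01% were above and 0.400% and 1.41% below. The lists hold at most 27 genes, so nothing is read from their counts of 0 to 3 calls. In RPTEC its median was -0.50, with 7 members higher and 15 lower, and SYK, a tyrosine kinase, was called above, with 2, 1, 1 and 2 peaks in SETD2KO and 0 in the 4 SETD2-expressing lists. ABL1 held 10 to 17 peaks and DAPK1, a death-associated kinase, 8 to 14 in the 786-O lists, both with overlap. NOTCH1 is described by its start window above.

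The list of mitochondrial and oxidative metabolism had 20 of 23 members with a peak in 786-O, a median difference of 0.375 and no member called in either cell line. AUH, an enzyme of leucine breakdown, held 2 to 7 peaks in 786-O and ACO1, the cytosolic aconitase that also binds iron-responsive elements, 1 to 4. ACO1 was called above in 786-O, by a mean of 1 peak, with 19249 peaks per list. AK3 and SLC25A51 held 1 to 4 and 1 to 3. ISCA1, an iron-sulfur cluster assembly factor, held 0 and 1 peaks in 786-O WT, 1 and 1 in SETD2KO-1, 2 and 2 in SETD2KO-2, and 1 and 0 in SETD2KO-1R. HSDL2, a peroxisomal dehydrogenase-like protein, held 2 and 3, 4 and 4, 5 and 3, and 3 and 3. In RPTEC HSDL2 held 3 and 0 in WT, 0 in the 4 SETD2KO lists, and 1 and 1 in SETD2KO-1R. Neither gene separated the groups in either cell line. With 19249 peaks per list the 786-O mean difference was 0.25 in place of 1.25 for HSDL2 and 0.75 in place of 1 for ISCA1. The study reports both genes as m6A hypermethylated and upregulated with SETD2 loss in 786-O. It used differential peak analysis, a measure unlike the number of peaks per list.

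In the list of lipid, carbohydrate and amino acid metabolism, 14 of 20 members had a peak in 786-O, with a median of 0.5, and 1 was called, PTGR1, a prostaglandin and leukotriene reductase, at 2, 2, 1 and 2 peaks in SETD2-expressing and 4, 3, 4 and 5 in SETD2KO lists. Neither KLF4 nor PTGR1 was called with 19249 peaks per list. The cholesterol exporter ABCA1 held 4 to 9 peaks in 786-O and 0 to 4 in RPTEC. Chromatin and RNA regulators had all 25 members with a peak, a median of 0.5 in 786-O and -0.50 in RPTEC, and none called. EHMT1, a histone H3 lysine 9 methyltransferase, held 8 to 23 peaks in 786-O and 5 to 19 in RPTEC.

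Matrix, secretion and cytoskeleton genes had 3 members called above in 786-O, PCSK5, PAPPA and CTSL, among 18 of 25 with a peak, and in RPTEC 1 above, ADAMTSL1, and 1 below, PCSK5. The CTSL gene body held 1 and 2 peaks in SETD2KO-1, 1 and 2 in SETD2KO-2 and none in the SETD2-expressing lists of 786-O, and 1 peak in 1 of 8 RPTEC lists. These counts include the peaks of its start window, whose summits lay before the gene. Counted by midpoint, the mean difference of CTSL in 786-O was only 0.5 peaks per list. Its call thus depended on counting any overlap of at least 1 bp. Protein folding, turnover and ribosome genes had 19 of 20 members with a peak in 786-O, a median of 0 and none called. Of the 10 genes of the interferon cluster, IFNE had 1 peak in 10 of the 16 lists, 5 per cell line, and the other 9 had none.

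Peaks of the 8 lists of a cell line were also merged where they overlapped, and a region was called for one SETD2 state when all 4 of its lists and none of the other 4 had a peak there. In 786-O 44 of 4332 chromosome 9 regions were called in SETD2KO alone (1.02%) and 3 in SETD2-expressing alone (0.0693%), where 0.475% and 0.147% of all regions of the genome were. In RPTEC 8 of 3035 (0.264%) were called in SETD2KO alone and 4 (0.132%) in SETD2-expressing alone, where 0.264% and 0.213% of all regions were. With 19249 peaks per list the 786-O count in SETD2KO alone was 18 of 2538 (0.709%), against 0.290% of all regions. The 44 made up 11.7% of all regions called in SETD2KO alone in 786-O. They lay in 23 protein-coding genes, with 4 in ASTN2, 3 in PAPPA and 2 each in APBA1, MAMDC2 and PCSK5, and 14 lay in none. None of the 44 was called in SETD2KO alone in RPTEC, where 9 of the 376 such regions of the genome were, too few to set the 0 apart. No RPTEC list had a peak in 20 of the 44 (45.5%), against 157 of the 376 (41.8%). Of the 24 with a peak 7 were found in more SETD2KO lists, 10 in more SETD2-expressing lists and 7 in equal numbers, where over the genome these counts were 125, 51 and 43.

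The 3 of the 44 with the highest mean score rank were also the 3 shortest. They were the CTSL region at chr9:87725939-87726257 (319 bp, 96.2 percentile), a region in NOL8, which encodes a nucleolar protein, at chr9:92301769-92302091 (323 bp, 94.9 percentile), and a region in BRD10, a bromodomain gene, at chr9:5988495-5988800 (306 bp, 87.1 percentile). The median over the 44 was 727 bp and the 45.8 percentile. In RPTEC the NOL8 region had a peak in 1 list, the BRD10 region in 4 and the CTSL region in none. NOL8 and BRD10 are named after their values were seen.

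Short-arm band 9p21 differed between lines of RPTEC in a way that did not follow SETD2 status. MTAP, the enzyme of methionine salvage, at chr9:21802636-21941115, held 10 and 16 peaks in RPTEC WT, 15 and 13 in SETD2KO-1, 0 and 0 in SETD2KO-2, and 13 and 14 in SETD2KO-1R. CDKN2B, an inhibitor of CDK4 and CDK6, held 2 in each list of WT, SETD2KO-1 and SETD2KO-1R and 0 in both of SETD2KO-2, and CDKN2A, which encodes p16 and p14ARF, held 5 and 2, 0 and 2, 0 and 0, and 1 and 1. The long noncoding RNA genes MIR31HG and CDKN2B-AS1 followed the same pattern, MIR31HG with 7 to 11 peaks in the other 6 lists and CDKN2B-AS1 with 2 to 5. CDKN2A, CDKN2B and both noncoding genes are named after their values were seen, and CDKN2B-AS1 overlaps CDKN2A and CDKN2B, so their peaks cannot be told apart without strand.

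The stretch without a peak in either SETD2KO-2 list of RPTEC ran from 21334508 to 22367437 on chromosome 9, 1032930 bp, in which the other 6 RPTEC lists held 25 to 30 peaks each and the 8 lists of 786-O 11 to 23. It held 7 successive regions that all other RPTEC lists called, the longest such run on any of the chromosomes compared, where the next longest was 2. Beyond its end, from 22367438 to 23000000, the SETD2KO-2 lists held 21 and 17 peaks and the other RPTEC lists 1 to 7. In 786-O all 8 lists lacked a peak over a shorter stretch of 436397 bp, from 21931216 to 22367612, which takes in CDKN2A and CDKN2B, while MTAP held 9 to 16. The fall of MTAP, the largest in RPTEC, rested on SETD2KO-2 alone, since both SETD2KO-1 lists lay within the SETD2-expressing range. The reason for the empty stretch was not tested.

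**Figure D5:**
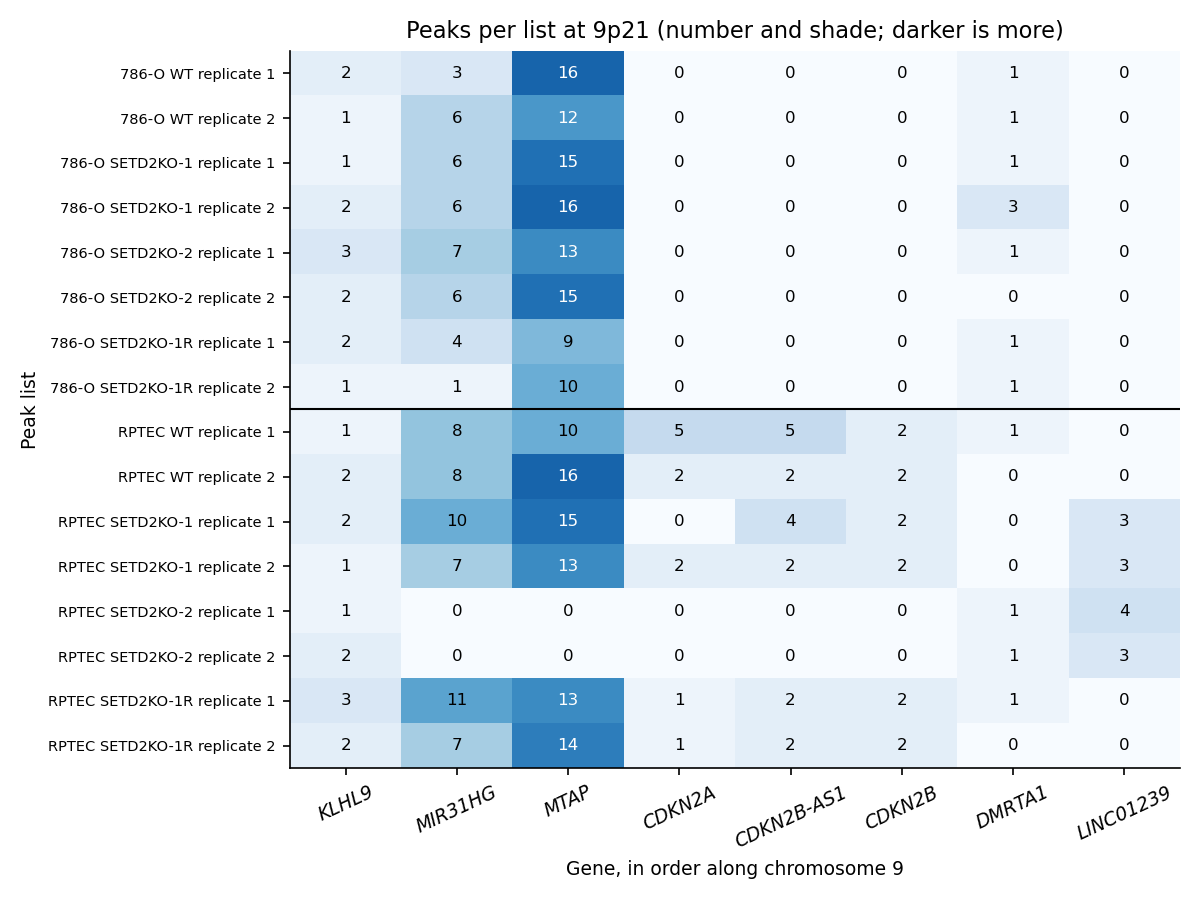
Number of peaks (number in each cell, darker for more) at genes of 9p21 in their order along the chromosome (x axis) in each of the 16 lists (y axis, 786-O above the line and RPTEC below). Both RPTEC SETD2KO-2 lists are at 0 from MIR31HG to CDKN2B, and all 786-O lists are at 0 for CDKN2A, CDKN2B-AS1 and CDKN2B.

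LINC01239, at chr9:22646200-22824213 beyond the end of the empty stretch, held 3 and 3 peaks in RPTEC SETD2KO-1, 4 and 3 in SETD2KO-2 and 0 in the 4 SETD2-expressing RPTEC lists and in all 786-O lists. It is a noncoding gene outside the counts above and is named after its values were seen.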

How the data were processed

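m6A was measured by MeRIP-seq in 16 IP libraries, 2 per line, grouped by the labels; the Input libraries have no files used here. Per the methods and processing notes the authors used STAR for alignment to hg38, HTSeq for quantification and MACS2 for peaks, with IP and Input scaled by spiked-in bacterial RNA, and made 1 list per IP library. The deposited lists give each peak a whole-number score, whose scale is not stated, and a summit offset; 3 further value columns are 0 throughout and were not used. No counts or strand are given, so depth is unknown. Here the score was used for nothing but the order of peaks inside each list.

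Peaks were placed by midpoint in windows and counted per RefSeq gene body (GRCh38.p14) by an overlap of at least 1 bp. Shares and scaled counts of peaks in protein-coding genes or in no gene used the midpoint. RPTEC groups and cell lines were compared by exact permutation tests over lists (70 and 12870 arrangements) with Benjamini-Hochberg adjustment over windows. SETD2KO against SETD2-expressing lists in 786-O were not tested. Genes named were the 10 largest rises and falls in mean peaks per list in 786-O and the 5 largest in RPTEC, HSDL2 and ISCA1, and, of each gene list, the 4 members with most peaks and any called. Chromosome 9, its genes and the lists were chosen with earlier results of these data known. Alternatives were the upper 50% of peaks, an equal 19249 peaks in every list, base pairs, merging within 100 bp, summits, 5-Mb windows, single clones, WT alone, a replicate block and each list left out. Steps were tested on simulated data. Exon and motif analyses of peaks need exon annotation and sequence beyond the start windows and miRNAs, which were not at hand, and were not run. Python 3.11.15, NumPy 2.4.6, pandas 2.3.3 and Matplotlib 3.10.9 were used.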

Additional observations from a re-analysis of the deposited data

Results flagged for a closer look

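PCSK5 and GCNT1 changed in opposite directions in the cell lines, with every SETD2KO list above in 786-O and below in RPTEC. The mean differences were 10.5 peaks per list in 786-O and -3.50 in RPTEC for PCSK5, and 3.75 and -1.50 for GCNT1. With 19249 peaks per list only PCSK5 in RPTEC still separated the groups. The difference between the cell lines was not tested.

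In groups of 4 lists, single lists stood far from the other 3 in 3 of 128 groups checked (2.3%), where chance gives about 1 in 20; for genes, only groups that spanned at least 5 peaks were checked. In the window from 40 to 50 Mb, RPTEC WT replicate 2 held 0.0778% of peaks against 0.103% to 0.106% in the other SETD2-expressing lists. In the window from 70 to 80 Mb, RPTEC SETD2KO-1 replicate 1 held 0.163% against 0.137% to 0.140% in the other SETD2KO lists. PAPPA held 6 peaks in 786-O SETD2KO-2 replicate 2 against 11 to 12 in the other SETD2KO lists.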

How the results depend on the processing

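The 786-O difference in chromosome 9 share, 1.27 percentage points, was positive under every alternative: 1.68 with the upper 50% of each list by score, 1.66 with the same number of peaks per list, 1.04 against WT alone and 0.261 when genes with a peak were counted in place of peaks, and 1.16 to 1.35 when 1 list was left out. The RPTEC difference, 0.0234, turned negative with the upper 50% (-0.0928), base pairs (-0.0482), peaks in protein-coding genes (-0.0661), genes with a peak (-0.103) and SETD2KO-2 alone (-0.0227), and ranged from -0.0496, without WT replicate 2, to 0.0644 when 1 list was left out; exact permutation p was 0.0571 for genes with a peak and higher in the other alternatives. With a replicate block the RPTEC difference was 0.0234 (exact permutation p = 0.889), the 786-O difference 1.27 and the RPTEC difference in the share of peaks in protein-coding genes -5.17 (exact permutation p = 0.111); the block changed no call. The lists share only a number: the replicate 1 minus replicate 2 differences over 10-Mb windows of the genome correlated between lines at -0.118 to 0.446 in 786-O and -0.633 to 0.578 in RPTEC. That last difference was -6.55 to -4.25 when 1 list was left out. The windows that differed between cell lines numbered 8 to 9 when 1 list was left out, 13 of 25 with 5-Mb windows and 0 with line means. No RPTEC window passed in any alternative, which the smallest p of the design makes nearly certain and which is no sign of stability. With the same number of peaks per list, 12 genes were called above in 786-O (2.47%, against 0.689% genome-wide), of which 4, APBA1, CTSL, PAPPA and ASTN2, were among the 19, and 0 were below (1.08% genome-wide). In RPTEC 6 were above (1.27%, against 1.08%) and 3 below (0.633%, against 0.735%); by midpoint, 2 were below in 786-O. Regions in SETD2KO alone then numbered 18 in 786-O (0.709%, against 0.290% genome-wide) and 3 in RPTEC (0.136%, against 0.240%), and those in SETD2-expressing alone 7 in RPTEC (0.317%, against 0.189%). Merging within 100 bp changed nothing. With peaks counted by midpoint, 18 of the 19 genes called above in 786-O were kept. The call of CTSL was lost, with a mean difference of 0.5 peaks per list. A call over fewer lists is easier to meet, so gene calls can only stay or rise when 1 list is left out. Genes above in 786-O then numbered 21 to 50, with 40 without WT replicate 2 and 50 without SETD2KO-2 replicate 2, and genes below 1 to 3, with 3 without SETD2KO-1 replicate 2 or SETD2KO-1R replicate 2 and 2 without WT replicate 2, either SETD2KO-2 list or SETD2KO-1R replicate 1. RPTEC genes above numbered 5 to 9, with 8 without SETD2KO-1R replicate 2 and 9 without SETD2KO-2 replicate 2, and genes below 3 to 16, with 16 without WT replicate 2, 12 without SETD2KO-1 replicate 2 and 5 to 7 without any other list but WT replicate 1. Regions in SETD2KO alone numbered 53 to 98 in 786-O, with 98 without SETD2KO-2 replicate 2 and 68 without SETD2KO-2 replicate 1, and 9 to 21 in RPTEC, with 21 without SETD2KO-1 replicate 2, 18 without SETD2KO-2 replicate 2 and 13 to 15 without SETD2KO-1 replicate 1 or either SETD2KO-1R list. Regions in SETD2-expressing alone numbered 4 to 9 in 786-O, with 6 to 9 without either WT list, SETD2KO-1 replicate 2 or either SETD2KO-1R list, and 5 to 16 in RPTEC, with 8 to 16 without any list but SETD2KO-2 replicate 1. The causes of these shifts were not tested. Depth is unknown, so an absent peak cannot be told from a peak below detection.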
